A study of Mus musculus with 4 samples.

Results

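The killer cell lectin-like receptor (Klr) family was taken as every gene of the RNA tables whose symbol begins with Klra, Klrb, Klrc, Klrd, Klre, Klrg, Klri or Klrk followed by a number. This rule found 26 of 32285 genes, namely 11 Klra genes, 5 Klrb1 genes, 3 Klrc genes and 7 others (Klrd1, Klre1, Klrg1, Klrg2, Klri1, Klri2 and Klrk1). The study follows liver immune cells of young adult C57BL/6J mice in a diet model of bile duct inflammation. The D0 mice are the control before the diet, with 0 days of chow containing 0.1% DDC (diethoxycarbonyl dihydrocollidine), and the D5 mice ate it for 5 days. The labels name no other treatment and no altered allele. Living CD45+ CD64- CD11c+ liver cells were sorted, and their nuclei were read by 10x Multiome, which measures RNA and open chromatin (ATAC) in the same nucleus. Each day is 1 library, and the labels do not say how many mice a library holds. A difference between D0 and D5 is therefore also a difference between 2 libraries, and the effect of the diet and of the library cannot be told apart. No test between days was possible, and all intervals given are 95% intervals that cover counting error only. The gate keeps cells with CD11c, so the NK and T cell-like nuclei described here are the CD11c+ fraction of these lineages.

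After filtering, 10982 nuclei at D0 and 19832 at D5 were grouped by marker genes that include no Klr gene. The NK cell-like class held 1453 nuclei at D0 (13.2%) and 1124 at D5 (5.67%), and the T cell-like class 349 and 423. The other classes compared were dendritic cell-like nuclei of 3 kinds (conventional cDC1-like, conventional cDC2-like, mature Ccr7+ DC-like), pDC-like nuclei (plasmacytoid dendritic cells) and macrophage-like nuclei, while 2327 nuclei at D0 and 5191 at D5 stayed unnamed. The median depth of NK cell-like nuclei was 1219 UMIs (unique molecular identifiers, counted RNA molecules) at D0 and 1741 at D5, and 591 cell barcodes occurred in both libraries. UMIs were summed over the nuclei of a class and given per 1000000 UMIs of that class (CPM). RNA of the sorted markers was present as the gate requires in NK cell-like nuclei, with Itgax (CD11c) at 336 CPM at D0 and 258 at D5, Ptprc (CD45) at 2395 and 1842 CPM, and Fcgr1 (CD64) at 2.46 and 7.08 CPM. In macrophage-like nuclei Fcgr1 reached 40.1 and 76.1 CPM.

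Klr receptors are C-type lectin-like membrane proteins encoded together in the NK gene complex, and NK cells and some T cells use them to sense whether a cell carries MHC class I or stress ligands. Klra genes encode the Ly49 receptors, most of which bind classical MHC class I, and each NK cell switches on only some of them. Klrc1 and Klrc2 encode NKG2A and NKG2C, which pair with CD94 (Klrd1) and bind Qa-1, the product of H2-T23. Klrk1 encodes NKG2D, the receptor for Raet1 and related stress ligands, the Klrb1 genes encode NKR-P1 receptors, of which those of Klrb1b and Klrb1f bind Clec2 proteins (Klrb1c encodes the NK1.1 antigen), and Klrg1 binds cadherins. Klre1 forms receptors with Klri1 or Klri2. Klra17 (Ly49Q) is known from plasmacytoid dendritic cells, whereas Klra8 (Ly49H) and Klra4 (Ly49D) are activating Ly49 receptors of NK cells. The Ly49 genes resemble each other closely, so reads can be shared between them and their single values are uncertain to that extent.

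All 26 members lie on chromosome 6 in the files (build mm10 by the processing notes), 24 of them between the start of Klrb1a and that of Klra2. RefSeq promoters of build GRCm38.p6 were found for 23 members, with Klrg1, Klrd1 and Klri2 not matched, and the 250 bases upstream of the start were read 5′ to 3′. The promoters of 4 closely related Ly49 genes are shown because they were highest in different classes of nuclei, and capitals mark bases that differ from the aligned Klra17 promoter. Klra17 was highest in pDC-like nuclei, Klra4 and Klra8 in NK cell-like nuclei, and Klra2 in macrophage-like nuclei. They lie on the minus strand of chromosome 6 at chr6:129876673-129876922 (Klra17), chr6:130067272-130067521 (Klra4), chr6:130129899-130130148 (Klra8) and chr6:131247363-131247612 (Klra2).
Klra17: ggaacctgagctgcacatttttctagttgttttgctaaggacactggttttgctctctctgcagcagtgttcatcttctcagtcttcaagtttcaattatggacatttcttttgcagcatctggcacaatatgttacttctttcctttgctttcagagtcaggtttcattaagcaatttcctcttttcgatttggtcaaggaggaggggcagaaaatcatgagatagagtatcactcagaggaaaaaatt
Klra4: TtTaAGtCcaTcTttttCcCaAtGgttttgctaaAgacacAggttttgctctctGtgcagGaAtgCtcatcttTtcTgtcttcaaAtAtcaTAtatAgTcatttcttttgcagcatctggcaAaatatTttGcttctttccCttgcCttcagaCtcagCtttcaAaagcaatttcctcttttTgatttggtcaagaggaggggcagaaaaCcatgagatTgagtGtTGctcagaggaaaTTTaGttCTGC
Klra8: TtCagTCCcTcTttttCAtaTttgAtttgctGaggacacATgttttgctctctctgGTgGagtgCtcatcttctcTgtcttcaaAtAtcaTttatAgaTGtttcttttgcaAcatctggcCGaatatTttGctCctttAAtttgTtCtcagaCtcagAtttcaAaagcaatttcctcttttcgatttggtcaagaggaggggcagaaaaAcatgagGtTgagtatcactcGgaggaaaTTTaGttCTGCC
Klra2: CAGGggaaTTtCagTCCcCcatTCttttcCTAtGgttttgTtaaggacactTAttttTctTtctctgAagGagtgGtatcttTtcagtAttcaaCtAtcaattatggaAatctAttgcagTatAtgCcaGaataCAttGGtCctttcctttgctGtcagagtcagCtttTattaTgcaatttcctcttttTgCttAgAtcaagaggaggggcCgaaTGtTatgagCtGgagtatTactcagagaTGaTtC
The Klra17 promoter was identical to that of Klra4 at 81.2% of its 250 bases, to that of Klra8 at 79.6% and to that of Klra2 at 76.4%, while the median over the 55 pairs of Klra promoters was 55.2% and over all 253 pairs of members 52.0%.

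Short motifs of lymphoid and myeloid regulators were searched in these 250 bases on both strands. The RUNX motif TGTGGT stood in 8 of 23 members (Klrb1a, Klrb1c, Klre1, Klrk1, Klrc3, Klrc2, Klrc1 and Klra1), against 14.05% of 32851 promoters. Some of these promoters resemble each other, with 82.4% identical bases between Klrc3 and Klrc2 and 75.2% between Klrb1a and Klrb1c. The 8 carriers need therefore not be 8 separate occurrences. The E-box CAGGTG stood in 3 members, Klra5, Klra6 and Klra7, against 17.2% of all promoters. The T-box motif GGTGTGA and the PU.1 motif GAGGAAGT stood in 0 of the 23 members, against 3.33% and 2.44%. Klra6 and Klra7, the E-box carriers that differed most between T and NK cell-like nuclei, and Klrk1 and Klrc1, RUNX carriers with high NK levels, are shown with the motif in capitals, all on the minus strand at chr6:130026955-130027204 (Klra6), chr6:130231688-130231937 (Klra7), chr6:129623865-129624114 (Klrk1) and chr6:129678974-129679223 (Klrc1). The E-box of Klra7 and the RUNX motif of Klre1 were each found at only 1 of the gene's 2 RefSeq starts.
Klra6: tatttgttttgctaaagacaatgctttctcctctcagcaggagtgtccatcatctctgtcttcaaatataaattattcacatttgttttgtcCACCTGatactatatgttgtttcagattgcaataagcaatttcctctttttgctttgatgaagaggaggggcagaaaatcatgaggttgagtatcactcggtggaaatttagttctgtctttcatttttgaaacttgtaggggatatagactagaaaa
Klra7: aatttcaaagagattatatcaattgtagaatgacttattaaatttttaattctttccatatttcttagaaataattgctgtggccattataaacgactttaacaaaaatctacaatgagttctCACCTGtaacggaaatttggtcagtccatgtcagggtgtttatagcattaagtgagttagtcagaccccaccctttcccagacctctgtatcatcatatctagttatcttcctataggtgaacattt
Klrk1: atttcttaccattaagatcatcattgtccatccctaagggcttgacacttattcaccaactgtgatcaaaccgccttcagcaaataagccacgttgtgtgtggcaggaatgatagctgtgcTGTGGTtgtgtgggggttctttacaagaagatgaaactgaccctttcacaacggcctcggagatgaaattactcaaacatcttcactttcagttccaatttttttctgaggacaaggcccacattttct
Klrc1: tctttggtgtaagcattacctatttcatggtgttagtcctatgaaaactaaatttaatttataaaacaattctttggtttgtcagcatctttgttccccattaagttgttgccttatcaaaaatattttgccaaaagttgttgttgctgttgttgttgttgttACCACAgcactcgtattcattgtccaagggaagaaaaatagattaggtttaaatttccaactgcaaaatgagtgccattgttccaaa
A match of letters is a description of the sequence and does not show binding.

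Summed over the family, NK and T cell-like nuclei stood clearly above all other named classes on both days. The family had 6528 CPM in NK cell-like nuclei at D0 and 5644 at D5, and 6355 and 5550 CPM in T cell-like nuclei. Of the other 5 classes compared, cDC2-like nuclei had the most, with 1239 and 1555 CPM, and the lowest values were 707 CPM in cDC1-like nuclei at D0 and 804 CPM in macrophage-like nuclei at D5. Named classes too small to compare were endothelial-like nuclei, with 1348 CPM on 99 family UMIs at D0 and 1083 CPM on 14 at D5, and neutrophil-like nuclei, with 644 CPM on 5 and 984 CPM on 185. Unnamed nuclei together had 1846 and 1534 CPM. Because the classes differ in size, NK cell-like nuclei held 31.0% of all family UMIs at D0 and 14.9% at D5, whereas cDC2-like nuclei held 10.3% and 30.4%. Klrb1, Klrg1, Klrg2 and Klra10 were hardly seen, with 20 to 75 UMIs each over all kept nuclei of both days.

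**Figure D1:**
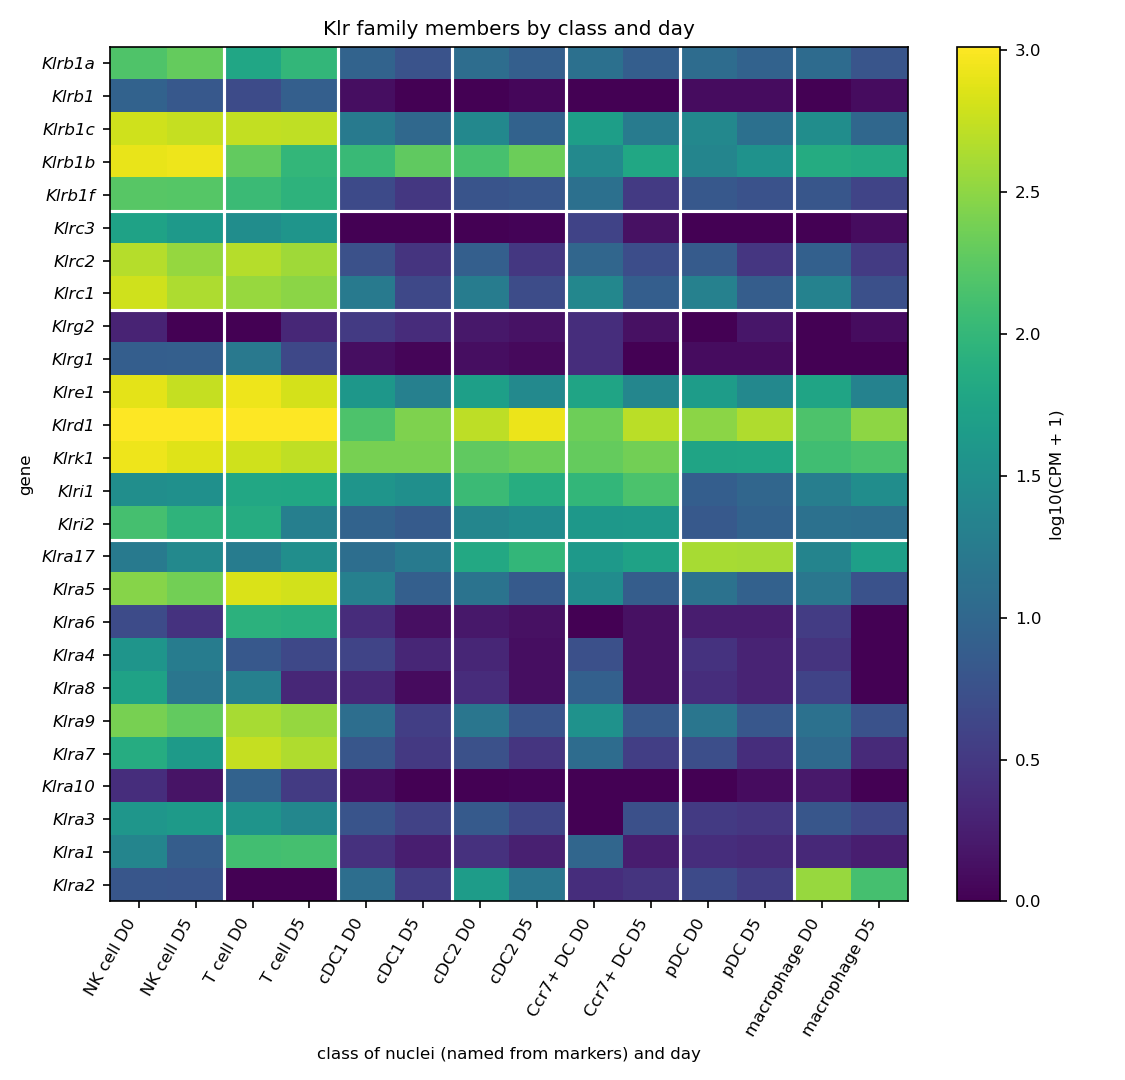
Level of each of the 26 Klr genes (rows) in 7 classes of nuclei on D0 and D5 (columns), as log10 of CPM plus 1, where colour runs from dark (0) to yellow (high). The NK and T cell-like columns are bright for most rows, while Klra17 is brightest in pDC-like nuclei (412 and 398 CPM) and Klra2 in macrophage-like nuclei (354 and 131 CPM).

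Between D0 and D5, most members differed by less than 2-fold in NK cell-like nuclei, more of them lower than higher at D5, and 3 Ly49 genes were lower by more than 2-fold. The family log2 ratio, D5 over D0, was -0.21 (-0.25 to -0.17). Of the 26 members 20 had at least 50 UMIs over both days, and of these 0 were at least 2-fold higher and 3 at least 2-fold lower, where the shares of all 8257 genes were 1.03% higher and 2.8% lower. The 6 members under this minimum in NK cell-like nuclei were Klra2 (11 UMIs at D0 and 12 at D5), Klra6 (8 and 4), Klra10 (3 and 1), Klrb1 (16 and 13), Klrg1 (14 and 16) and Klrg2 (2 and 0). Counting intervals of the ratio lay below 0 for 12 of the 20 members and above 0 for 2. The share of all genes with intervals off 0 is not given here, so such counts do not set the family apart. The median log2 ratio of the 20 members was -0.32, against -0.16 for all genes. Scaling by TMM factors, which moves every ratio of this comparison up by 0.19, placed the family at -0.02. Intervals then lay below 0 for 8 members and above 0 for 4. With classes from markers in each nucleus the family ratio changed sign. The difference between days thus depends on the scaling and on the naming of nuclei. With TMM factors Klra4 was short of 2-fold, which left Klra8 and Klra1.

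Among the Ly49 genes, Klra8 had 53.2 CPM (108 UMIs) at D0 and 14.2 CPM (32 UMIs) at D5 in NK cell-like nuclei, a log2 ratio of -1.91 (-2.53 to -1.33). Klra1 (Ly49A) had 22.2 CPM (45 UMIs) and 6.64 CPM (15 UMIs), a ratio of -1.74 (-2.69 to -0.87). Klra4 had 36.0 CPM (73 UMIs) and 17.3 CPM (39 UMIs), a ratio of -1.06 (-1.66 to -0.48). All 3 were higher at D0 than at D5 with intervals that do not overlap. In the 228 and 126 NK cell-like nuclei that held no CD3 or T cell receptor UMI, too few UMIs were left to tell a difference, with Klra8 on 11 and 6 UMIs (-0.41, -2.12 to 1.16), Klra4 on 23 and 12 (-0.47, -1.61 to 0.60) and Klra1 on 1 and 2. With a coarser clustering Klra1 was at 0.02 (-0.36 to 0.40). That clustering formed no T cell-like class, and its NK cell-like class of 1898 and 1577 nuclei also raised 11 T cell markers. The value may therefore not be of NK cell-like nuclei alone. Klra7 (Ly49G) had 71.5 and 43.4 CPM (-0.72), Klra5 (Ly49E) 293 and 237 CPM (-0.31) and Klra9 (Ly49I) 246 and 195 CPM (-0.34), with intervals of the ratio below 0. Klra3 (Ly49C) had 37.5 and 42.5 CPM (0.18, -0.27 to 0.64), and Klra17, at 15.8 and 25.2 CPM (0.68, 0.03 to 1.35), was higher at D5. As a group, the Klra genes had 786 CPM at D0 and 589 at D5.

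CD94 (Klrd1) stood at the same level on both days by CPM, and its NKG2 partners were lower at D5. Klrd1 had 1019 CPM at D0 and 1028 at D5 in NK cell-like nuclei, a log2 ratio of 0.01 (-0.07 to 0.10), which TMM factors moved to 0.21 (0.12 to 0.29) and classes from markers in each nucleus to 0.32 (0.25 to 0.39). This was 127% of free RNA (read from uncalled barcodes) at D0 and 99.7% at D5. Its partners were lower at D5, with Klrc1 at 622 and 436 CPM (-0.51, -0.63 to -0.39) and Klrc2 at 478 and 347 CPM (-0.46, -0.60 to -0.32), while Klrc3 had 53.7 and 40.7 CPM (-0.40, -0.82 to 0.01). Over all alternatives the ratio of Klrc1 ran from -0.50 to -0.11 and that of Klrc2 from -0.47 to -0.07, both weakest with classes from markers in each nucleus or in nuclei without a T cell receptor or CD3 UMI, where 0 lay in the interval for Klrc2 in both and for Klrc1 in the latter. Klrk1, which signals through Hcst, had 862 and 736 CPM (-0.23), and Klre1 had 774 and 555 CPM (-0.48). Alternatives gave -0.24 to -0.03 for Klrk1 and -0.68 to -0.11 for Klre1. Klri2, the partner of Klre1, had 134 and 91.2 CPM (-0.55), whereas Klri1 had 30.1 and 31.4 CPM. In the Klrb1 group Klrb1a was higher at D5, with 149 and 197 CPM (0.40, 0.18 to 0.61), Klrb1b had 816 and 860 CPM (0.08, -0.02 to 0.17), Klrb1c 621 and 555 CPM (-0.16) and Klrb1f 168 and 165 CPM (-0.03).

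T cell-like nuclei were close to NK cell-like nuclei in their family total but differed in the levels of several Ly49 genes, while Klra5 and Klra9 were among the 3 highest Ly49 genes in both. The T cell-like class was named by T cell markers, Cd3e among them. Its CD3 and T cell receptor levels therefore describe it and are no separate support for the name. T cell-like nuclei had Cd3e at 431 CPM at D0 and 421 at D5 against 5.91 and 4.87 CPM in NK cell-like nuclei. Cd3d had 536 and 656 CPM against 23.2 and 35.4 CPM. Other T cell genes differed less, with Cd3g at 692 and 701 CPM against 313 and 418 CPM in NK cell-like nuclei and Trbc2 at 1077 and 1030 CPM against 450.0 and 432 CPM, and Trbc1, at 731 and 690 CPM, was below the 924 and 713 CPM of NK cell-like nuclei. They held RNA of both receptor types, with Trdc of the gamma-delta receptor at 358 and 383 CPM and Trac of the alpha-beta receptor at 319 and 204 CPM, beside Ncr1, an NK receptor gene, at 270 and 208 CPM. The family log2 ratio of NK over T cell-like nuclei was 0.04 (-0.02 to 0.09) at D0 and 0.02 (-0.02 to 0.07) at D5. At D0, of 20 members with enough UMIs, 4 were at least 2-fold higher and 5 at least 2-fold lower in NK cell-like nuclei, where the shares of all genes were 2.59% and 0.877%. At D5, of 19 members, 3 were higher and 4 lower, against 2.46% and 0.944%.

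Of the Ly49 genes, 4 were more than 2-fold higher in T cell-like nuclei on both days. Klra7 had 560 CPM at D0 and 451 at D5 in T cell-like nuclei and 71.5 and 43.4 CPM in NK cell-like nuclei, a log2 ratio of NK over T of -2.97 and -3.38. Klra6 (Ly49F) had 85.5 and 77.97 CPM against 3.94 and 1.77 CPM, ratios of -4.44 and -5.46. Klra1 had 124 and 131 CPM against 22.2 and 6.64 CPM, ratios of -2.49 and -4.30. Klra5 had 686 and 647 CPM against 293 and 237 CPM, ratios of -1.23 and -1.45. Both T cell-like values lay above both NK cell-like values for each of the 4 genes. When nuclei were named one by one from their markers, this gave 22 and 18 T cell-like and 2016 and 1409 NK cell-like nuclei. The ratios of Klra5 were then -0.56 and -0.16 and that of Klra7 at D0 was -0.9999, all short of 2-fold. Klra7 at D5 was then at -1.55, Klra6 at -1.15 and -2.54 and Klra1 at D5 at -1.46, each nearer to 0 than above. With a minimum of 2000 UMIs, Klra7 was at -1.45 and -2.99. On the NK side stood Klrb1b, with 816 and 860 CPM in NK cell-like and 194 and 96.9 CPM in T cell-like nuclei (ratios 2.07 and 3.15), and Klrb1a, with ratios of 1.31 and 1.02. Klri2 joined them at D5 (2.27), on 206 UMIs in NK cell-like and 16 in T cell-like nuclei. The other member called lower in NK cell-like nuclei at D0 was Klri1, with 62.2 and 61.4 CPM in T cell-like nuclei and ratios of -1.05 and -0.97. Klra9 was also higher in T cell-like nuclei, at 418 and 346 CPM, but short of 2-fold (-0.76 and -0.83). Klra8 and Klra4 were higher in NK cell-like nuclei at D0 (1.45 and 2.63) and rested on 10 and 3 UMIs in T cell-like nuclei. Klrd1, by contrast, had 1001 and 1024 CPM in T cell-like nuclei, with ratios of 0.03 (-0.11 to 0.17) and 0.00 (-0.11 to 0.12).

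**Figure D2:**
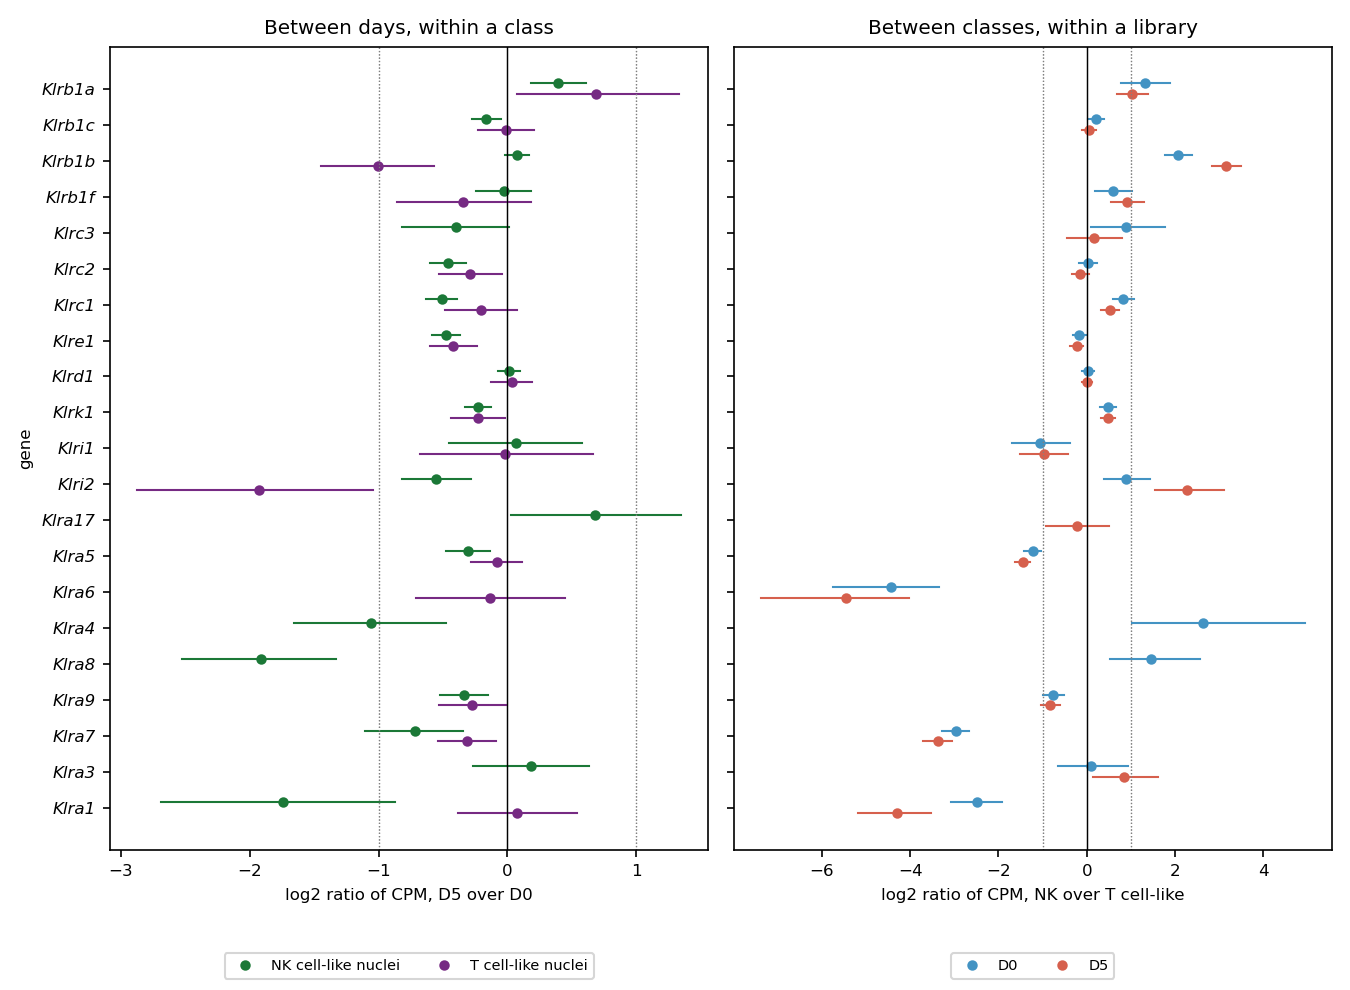
Log2 ratio of CPM for each Klr gene with at least 50 UMIs, on the left D5 over D0 within NK cell-like (green) and T cell-like (purple) nuclei, on the right NK over T cell-like nuclei at D0 (blue) and D5 (red). Lines are 95% counting intervals and dotted lines mark 2-fold. On the right Klra6, Klra7, Klra1 and Klra5 lie left of the 2-fold line on both days and Klrb1b right of it, and on the left Klra8, Klra1 and Klra4 in NK cell-like nuclei lie beyond -1.

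Between the days the family in T cell-like nuclei had a log2 ratio of -0.20 (-0.26 to -0.13), and 0.01 with TMM factors. Of 16 members with enough UMIs, 0 were at least 2-fold higher and 2 at least 2-fold lower, against 1.17% and 2.13% of all genes. Klrb1b had 194 CPM (100 UMIs) at D0 and 96.9 CPM (82 UMIs) at D5 (-1.004, -1.44 to -0.57). Klri2 had 71.9 CPM (37 UMIs) and 18.9 CPM (16 UMIs) (-1.93, -2.87 to -1.05). Both were lower at D5 with intervals of the ratio below 0. TMM factors moved Klrb1b to -0.80, short of 2-fold, which left only Klri2 (-1.72) beyond it. Over the alternatives Klri2 ran from -3.05 to -0.91 and Klrb1b from -1.35 to -0.77, so Klri2 could fall short of 2-fold too. The Ly49 genes that were high in T cell-like nuclei had ratios between -0.31 (Klra7) and 0.08 (Klra1). Klrb1a was higher at D5, at 60.2 and 96.9 CPM (0.69, 0.07 to 1.33). The receptors of the NKG2 group were closer, with Klrc1 at 350 and 304 CPM, Klrc2 at 470 and 385 CPM and Klrk1 at 618 and 528 CPM. Klre1 had 871 and 651 CPM (-0.42, -0.60 to -0.24), and Klrb1c had 538 and 534 CPM. Klrb1f had 111 and 87.4 CPM.

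To see whether the day difference of the Ly49 genes fell on certain NK cells, the NK cell-like nuclei were clustered again without Klr genes into 6 subclusters. Only subcluster 3 could be named, as a conventional NK state, with 237 nuclei at D0 and 165 at D5 and with Eomes, a factor of conventional NK cells that counted toward its name, at 34.6 and 33.9 CPM. It raised 4 conventional NK markers and 3 of ILC1 (type 1 innate lymphoid cells). Subcluster 2 raised 5 ILC1 markers and 1 conventional NK marker, but none was among its leading genes. Over all NK cell-like nuclei Eomes had only 9.86 and 7.52 CPM, on 20 and 17 UMIs, so ILC1-like nuclei may be among them. Since a cluster set against the rest is a description, its values are given without a test. Klra4 had 164 CPM at D0 and 77.9 at D5 in subcluster 3, while the other NK cell-like nuclei had 9.51 and 8.15 CPM. Klra8 had 173 CPM in subcluster 3 at D0 and 33.9 CPM at D5, while the others had 28.5 and 11.2 CPM. Klra7 had 173 and 115 CPM in subcluster 3, and 50.5 and 32.6 CPM in the others. Klra5 and Klra9 went the other way, with Klra5 at 74.9 and 13.6 CPM in subcluster 3 against 338 and 270 CPM elsewhere. Of 18 members with enough UMIs at D0, 3 were at least 2-fold higher and 2 lower in subcluster 3, against 2.08% and 5.87% of all genes, and of 17 at D5, 1 was higher and 2 lower, against 2.3% and 6.42%.

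Within subcluster 3 the log2 ratio of D5 over D0 was -2.35 (-3.48 to -1.37) for Klra8 and -1.08 (-1.84 to -0.35) for Klra4. Over all NK cell-like nuclei the ratios of Klra8 and Klra4 were -1.91 and -1.06. Outside this subcluster Klra4 was close between the days, while Klra8 was lower at D5 there too. The part of subcluster make-up in these ratios was not tested. The share of the subcluster among NK cell-like nuclei was 16.3% at D0 and 14.7% at D5. The rest differed more in make-up. Subcluster 1, led by Ccl1, Csf2, Crtam and Gzmc among others, was 10.1% of NK cell-like nuclei at D0 and 47.1% at D5, and subcluster 2, led by Hspa1b and Hspa1a among others, was 44.9% and 22.95%. Klra5 was at 174 and 257 CPM in subcluster 1 and at 356 and 275 CPM in subcluster 2. Subcluster 4, with 53 and 70 nuclei, was led by Tnip3 and other genes outside the NK list. Without it, an alternative chosen after seeing the data, the family ratio of the days was -0.19 and the Klra8 ratio -2.11.

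**Figure D3:**
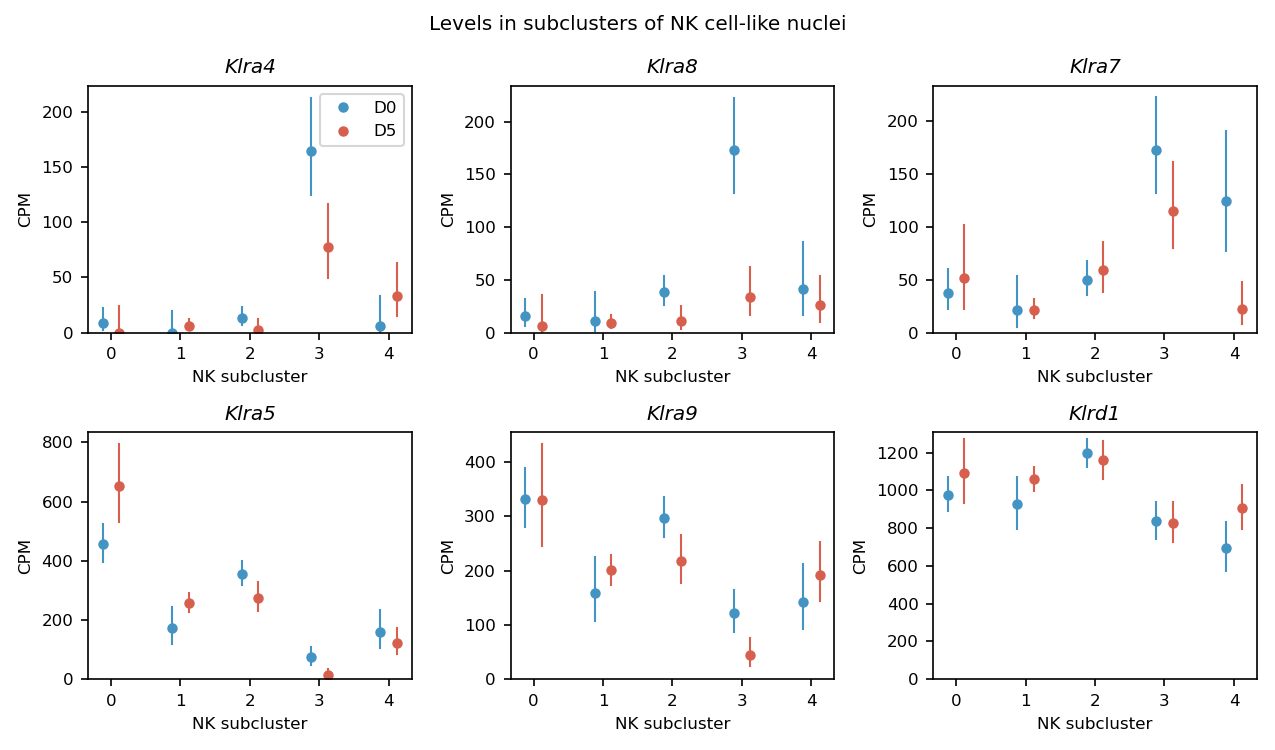
CPM of 6 Klr genes in subclusters 0 to 4 of the NK cell-like nuclei clustered again, at D0 (blue) and D5 (red), with exact Poisson 95% intervals as lines. Klra4 and Klra8 reach 164 and 173 CPM in subcluster 3 at D0 and are lower there at D5 (77.9 and 33.9 CPM), whereas Klra5 and Klra9 are lowest in subcluster 3.

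To count nuclei at equal depth, they were also thinned to 1000 UMIs each, the minimum that every kept nucleus had, and scored for any Ly49 gene. At this depth neither a class sum nor such a share can tell fewer nuclei with a transcript from less transcript per nucleus. At D0, 36.7% (34.2 to 39.2) of NK cell-like nuclei had a UMI of at least 1 Klra gene, and at D5 30.1% (27.4 to 32.9), while unthinned shares were 42.1% and 40.9%. At least 2 different Klra genes were seen in 8.47% and 6.23%. In T cell-like nuclei 73.6% at D0 and 69.7% at D5 had at least 1, and 32.1% and 28.1% at least 2. The T cell-like shares were higher than the NK cell-like shares on both days, without overlap of the intervals. In cDC1-like nuclei, which should lack most of these receptors, the share was 7.04% and 4.02%, at median depths of 2061 and 3022 UMIs before thinning. This was the lowest share of the classes compared on both days. In pDC-like nuclei it was 33.1% and 31.5%, with intervals that overlap those of NK cell-like nuclei on both days. Macrophage-like nuclei had 32.2% and 16.7%, and cDC2-like and Ccr7+ DC-like nuclei lay between macrophage-like and cDC1-like nuclei. A score for any Ly49 gene therefore does not set NK cell-like nuclei apart from pDC-like nuclei.

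Outside the lymphoid classes, free RNA has to be set beside every level, because RNA released from broken cells enters all droplets. It was read from barcodes that were not called as cells and held at most 50 UMIs, which gave 2484533 UMIs at D0 and 5349315 at D5. Ncr1, which myeloid cells should lack, was at 13.7% to 16.99% of its free level in the 5 myeloid classes at D0 and at 15.6% to 28.5% at D5. Klrc1 stood at a similar height, with 14.3% to 21.4% at D0 and 13.5% to 27.1% at D5. In cDC1-like nuclei Klrc1 had 16.0 CPM at D0 and 3.51 at D5, a log2 ratio of -2.18, while free Klrc1 went from 112 to 26.0 CPM and free Ncr1 from 176 to 43.0 CPM. Free RNA of Klrb1c, Klrc2, Klre1, Klra5 and Klra9 was also lower at D5, as were their levels in those myeloid classes where they passed 2-fold. Free RNA of Klrk1, Klrb1b and Klra17 was lower as well (log2 ratios of -0.66, -0.40 and -0.45). None of these was at least 2-fold lower in a myeloid class. The part of free RNA in these myeloid values was not tested.

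Klra17 was a gene of the pDC-like nuclei. It had 412 CPM (1642 UMIs) at D0 and 398 CPM (1580 UMIs) at D5 there, and 31.5 and 61.6 CPM in all other named nuclei together, log2 ratios of 3.71 (3.55 to 3.88) and 2.69 (2.60 to 2.79). Without removal of doublets both ratios were smaller, below these intervals. The pDC-like level was 550% and 727% of the free level. After thinning, 30.1% (28.3 to 32.0) and 29.9% (27.9 to 31.9) of pDC-like nuclei had a Klra17 UMI, against 1.72% and 1.78% of NK cell-like nuclei. Of 22 members with enough UMIs in this comparison at D0, 1, Klra17, was at least 2-fold higher in pDC-like nuclei and 20 were lower, against 12.7% and 18.1% of all genes. At D5 it was 1 and 18 of 21, against 16.4% and 16.2%. The pDC-like level did not differ between days beyond counting error (-0.05, -0.15 to 0.05). Outside the pDC-like nuclei Klra17 was higher at D5 in cDC2-like nuclei, at 65.4 and 97.0 CPM (0.57, 0.37 to 0.77), and in macrophage-like nuclei, at 21.9 and 49.1 CPM (1.17, 0.65 to 1.73), where it was 87.3% and 177%, and 29.2% and 89.7%, of the free level.

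Klra2 (Ly49B) was a gene of the macrophage-like nuclei and was lower at D5. It had 354 CPM (583 UMIs) at D0 and 131 CPM (500 UMIs) at D5, a log2 ratio of -1.44 (-1.61 to -1.26), and in cDC2-like nuclei 45.6 and 14.1 CPM (-1.70). In T cell-like nuclei it had 0 UMIs on both days, which with 3 UMIs as the floor allows up to 5.83 CPM at D0 and 3.54 at D5. Free Klra2 was also lower at D5, at 18.9 and 6.54 CPM, but the macrophage-like level was 1872% and 1998% of it. The share of macrophage-like nuclei with a Klra2 UMI after thinning was 27.1% (24.1 to 30.2) at D0 and 11.9% (10.3 to 13.8) at D5, without overlap. Markers of other cells moved too in macrophage-like nuclei, where the 12 NK cell markers summed to 1067 CPM at D0 and 469 at D5, the 6 endothelial markers to 198 and 51.5 CPM, the 5 hepatocyte markers to 78.4 and 22.7 CPM and the 10 cDC2 markers to 2642 and 3681 CPM. The 10 macrophage markers summed to 1280 and 1706 CPM. The 8 nonclassical monocyte markers, at 687 and 618 CPM, were higher here than in the other classes compared, so the class may hold monocyte-like nuclei too. The part of these shifts in the Klra2 difference was not tested. Of 10 members with enough UMIs in these nuclei, 2 were at least 2-fold higher (Klra17 and Klrd1) and 4 lower (Klra2, Klrc1, Klrb1c and Klre1) at D5, against 0.884% and 5.17% of all genes.

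Klrd1 was higher at D5 in all 5 myeloid classes, while its CPM differed little in NK and T cell-like nuclei. It had 513 CPM at D0 and 838 at D5 in cDC2-like nuclei (0.71, 0.64 to 0.78), 148 and 272 CPM in cDC1-like (0.88), 305 and 446 CPM in pDC-like (0.55), 222 and 504 CPM in Ccr7+ DC-like (1.18) and 148 and 319 CPM in macrophage-like nuclei (1.11). Every one of these D5 values lay above the D0 value of its class, with intervals of the ratio above 0. After thinning, 37.4% (35.1 to 39.7) of cDC2-like nuclei had a Klrd1 UMI at D0 and 53.95% (52.7 to 55.2) at D5, against 61.0% on both days in NK cell-like nuclei. The 10 cDC2 markers also summed higher at D5, at 610 and 1130 CPM in cDC1-like and 1019 and 2075 CPM in pDC-like nuclei. In Ccr7+ DC-like nuclei they stood at 2183 and 3491 CPM, and in cDC2-like nuclei at 3909 and 5217 CPM. The 12 NK cell markers were lower at D5, at 834 and 394 CPM in cDC1-like and 1133 and 662 CPM in pDC-like nuclei. In Ccr7+ DC-like nuclei they had 1183 and 572 CPM, and in cDC2-like nuclei 994 and 456 CPM. The part of both marker lists in the Klrd1 values was not tested. Free Klrd1 was 802 CPM at D0 and 1031 at D5, close to the NK cell-like level, and the myeloid classes reached 18.4% to 64.0% of it at D0 and 26.3% to 81.3% at D5. In cDC2-like nuclei this was above the 14.3% and 16.97% of Ncr1, whereas Klrc1, the partner of Klrd1, was at 15.4% on both days there.

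Klrk1 and the NKR-P1 gene Klrb1b were also seen in cDC1-like and cDC2-like nuclei at levels close to or above that of free RNA. The same held for Klrk1 in Ccr7+ DC-like nuclei, given below. Klrk1 had 244 CPM on both days in cDC1-like nuclei (107% and 169% of free) and 186 and 214 CPM in cDC2-like nuclei (0.21, 0.09 to 0.33), but 55.9 and 58.7 CPM in pDC-like nuclei (24.5% and 40.7% of free). Klrb1b had 109 and 190 CPM in cDC1-like nuclei (0.79, 0.63 to 0.96) and 135 and 218 CPM in cDC2-like nuclei (0.69, 0.55 to 0.83), or 89.8% and 206%, and 111% and 236%, of free. Klri1 reached 97.3 and 142 CPM in Ccr7+ DC-like nuclei and 112 and 74.2 CPM in cDC2-like nuclei, where it was above its level of 30.1 and 31.4 CPM in NK cell-like nuclei. Klri2 had 38.9 and 40.8 CPM in Ccr7+ DC-like nuclei, 154% and 260% of free.

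The remaining levels of members with at least 50 UMIs in a myeloid class were mostly far below those in NK cell-like nuclei. Klrk1 had 198 and 237 CPM in Ccr7+ DC-like and 120 and 139 CPM in macrophage-like nuclei, beside 228 and 144 CPM in free RNA. Klrb1b had 25.5 and 60.5 CPM in Ccr7+ DC-like (20.9% and 65.7% of free), 22.3 and 33.8 CPM in pDC-like (18.3% and 36.6%) and 71.1 and 64.6 CPM in macrophage-like nuclei. Klre1 ran from 38.2 CPM (cDC1-like) to 56.9 CPM (Ccr7+ DC-like) over the 5 classes at D0 and from 19.4 to 25.2 CPM at D5, lower at D5 in each. Klrb1c ran from 16.5 to 47.9 CPM at D0 and from 7.95 to 16.7 CPM at D5, again lower in each class. The D0 and D5 ranges of Klre1 did not overlap, and those of Klrb1c met only at 16.5 CPM in cDC1-like nuclei at D0 and 16.7 CPM in Ccr7+ DC-like nuclei at D5.

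Klrc1 had 17.3 and 4.01 CPM in cDC2-like, 20.1 and 6.80 CPM in pDC-like and 20.7 and 4.44 CPM in macrophage-like nuclei, and Klrc2 in cDC2-like nuclei had 7.07 and 2.09 CPM. Klra5 and Klra9 passed the minimum in the same 3 classes, with Klra5 at 19.7 and 7.25 CPM in cDC1-like, 13.02 and 6.10 CPM in cDC2-like and 12.5 and 7.56 CPM in pDC-like nuclei. Klra9 had 11.4 and 2.63 CPM, 14.1 and 5.08 CPM, and 14.3 and 5.54 CPM in these classes. All of them were lower at D5, as was Klra2 in cDC1-like nuclei (11.1 and 2.42 CPM). Klra17 had 11.4 and 16.2 CPM in cDC1-like and 40.4 and 53.5 CPM in Ccr7+ DC-like nuclei, with 0 inside both intervals of the ratio.

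Klri1 had 36.2 and 31.1 CPM in cDC1-like, 7.02 and 8.82 CPM in pDC-like and 18.2 and 29.3 CPM in macrophage-like nuclei. The level of Klri2 was 23.2 and 28.2 CPM in cDC2-like nuclei, and it stayed between 6.02 and 12.1 CPM in cDC1-like, pDC-like and macrophage-like nuclei. Klrb1a stayed between 4.83 and 11.04 CPM in cDC1-like, cDC2-like and pDC-like nuclei, Klrb1f had 5.09 and 5.56 CPM and Klra3 6.23 and 3.29 CPM in cDC2-like nuclei. Of these 5 genes only Klri1, in cDC1-like nuclei at D0, was above its NK cell-like level here. Counting all members, 13 had enough UMIs in cDC1-like nuclei, with 0 at least 2-fold higher and 4 lower at D5 (0.557% and 5.62% of all genes). In cDC2-like nuclei it was 16 with 0 and 6 (1.14% and 5.4%), in Ccr7+ DC-like nuclei 8 with 2 (Klrd1 and Klrb1b) and 2 (2.52% and 2.72%) and in pDC-like nuclei 12 with 0 and 3 (0.945% and 1.49%). All lower members in these 4 classes were among Klrc1, Klrc2, Klrb1c, Klre1, Klra2, Klra5 and Klra9. Free RNA of these genes was lower too, but so was that of every other member with at least 50 free UMIs except Klrd1 and Klri1. The part of free RNA in these values was not tested.

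**Figure D4:**
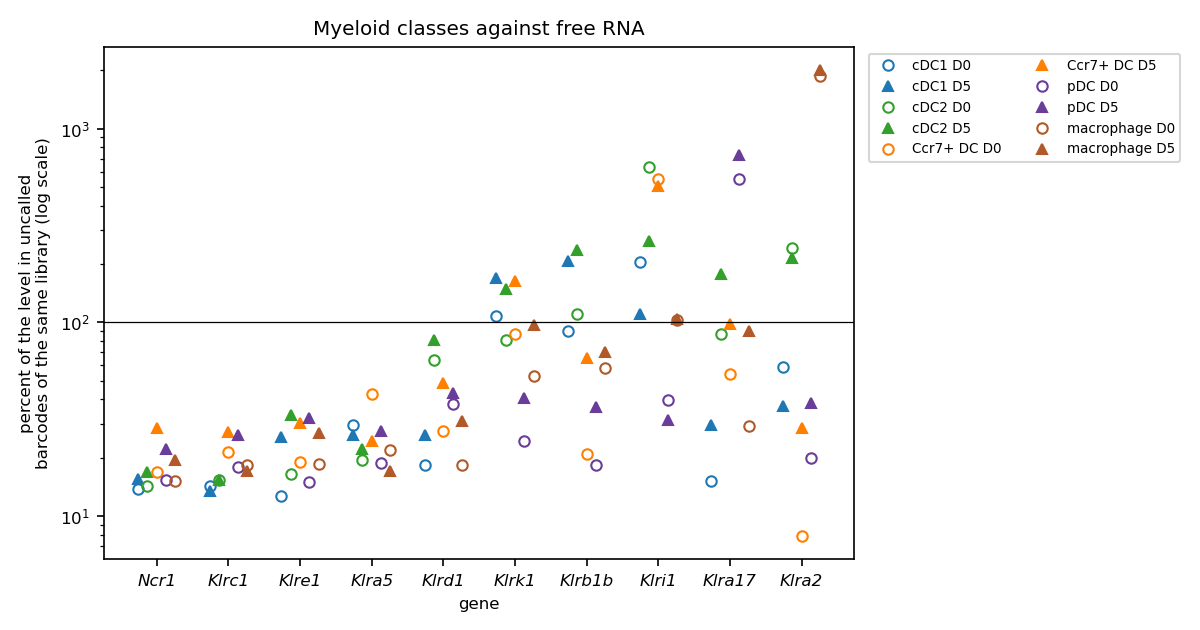
Level of Ncr1 and 9 Klr genes in 5 myeloid classes as a percentage of the level in uncalled barcodes of the same library (log scale), with D0 as open circles and D5 as filled triangles. Ncr1 and Klrc1 lie between 13.5% and 28.5%, Klrd1 lies between 18.4% and 81.3%, and Klra17 in pDC-like and Klra2 in macrophage-like nuclei lie far above the line at 100%.

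Open chromatin was read from the same nuclei as another measure than the one that named them. Overlapping peaks were merged into 127216 regions present in both libraries, called shared regions, and 18 of 26 members had a shared region within 2 kb of the start, as had 60.4% of all genes. Of the Klra genes only 5 of 11 had one. Fragments in these regions were scaled by the class total over all shared regions in the same way as CPM (fpm). The family sum in NK cell-like over cDC-like nuclei (cDC1-like plus cDC2-like) had a log2 ratio of 1.08 (0.99 to 1.17) at D0 and 1.19 (1.09 to 1.28) at D5. Of 15 members with at least 50 fragments, 8 were at least 2-fold higher and 3 lower at D0, against 17% and 41.9% of all shared regions, and 6 and 4 at D5, against 13.5% and 48.3%. A member's value sums its regions within 2 kb of the start, while the shares in this paragraph are of single regions anywhere in the genome. The matching share over the starts of all genes is not given here. Between the days in NK cell-like nuclei the family had a ratio of 0.07 (-0.04 to 0.17), with 0 of 12 members beyond 2-fold either way (1.97% and 1.62% of all shared regions). NK over T cell-like nuclei had a family ratio of 0.33 (0.16 to 0.49) at D0 and 0.34 (0.16 to 0.52) at D5, with 1 of 11 members at least 2-fold higher and 0 lower at D0 (4.08% and 0.659% of all shared regions), and 2 of 9 and 0 at D5 (3.73% and 0.755%). These were Klrb1b on both days, at 27.7 and 36.4 fpm in NK cell-like against 9.40 and 7.91 in T cell-like nuclei, and Klrb1a at D5 (29.8 against 13.3).

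Start sites followed the class of the RNA for some members and not for others. Klrc1 had 47.5 fpm at D0 and 57.4 at D5 in NK cell-like nuclei and 1.85 and 2.26 in cDC-like nuclei. Klrg1, whose RNA rested on only 14 and 16 UMIs in NK cell-like nuclei, had 16.96 and 20.5 there against 0.363 and 0.364 in cDC-like nuclei. Klra17 had 16.5 and 16.6 in pDC-like nuclei, 8.63 and 6.80 in cDC-like nuclei and 1.75 and 0.836 in NK cell-like nuclei. Klra2 had 32.4 and 26.8 in macrophage-like nuclei and 23.2 and 15.8 in cDC-like nuclei, which had less of its RNA, against 1.003 and 1.39 in NK cell-like nuclei. Klra5 and Klra1, whose RNA was more than 2-fold higher in T than in NK cell-like nuclei, had start sites less than 2-fold apart. Klra5 had 26.4 and 15.3 in NK cell-like and 23.9 and 21.6 in T cell-like nuclei, and its day ratio in NK cell-like nuclei was -0.78 (-1.25 to -0.33), lower beyond counting error. Klra1 had 10.7 and 6.69 in NK cell-like and 11.2 and 12.1 in T cell-like nuclei, and the day ratio in NK cell-like nuclei was -0.68 (-1.42 to 0.02). Klrd1, by contrast, had 16.9 and 16.2 in NK cell-like and 11.7 and 14.8 in cDC-like nuclei, a far smaller difference than for Klrc1.

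Of the Klra genes, 6 had no shared region within 2 kb of the start. Among these, Klra4 had a peak there in the D0 library only and Klra9 in the D5 library only. A lymphoid region lay some kilobases upstream of 5 of these 6 genes, and of Klra3, and these regions were singled out after the values were seen. For Klra6 it lay 4824 bp upstream of the start, at chr6:130031337-130032219, with 10.7 and 10.5 fpm in NK cell-like, 13.7 and 14.2 in T cell-like and 0.617 and 0.437 in cDC-like nuclei. For Klra8 it lay 6734 bp upstream, at chr6:130136170-130137094, with 13.04 and 12.96 in NK cell-like and 0.145 and 0.2001 in cDC-like nuclei. Regions of the same kind lay 4638 bp upstream of Klra9 (chr6:130197304-130198196), 4602 bp upstream of Klra7 (chr6:130237483-130238365), 6289 bp upstream of Klra10 and 4617 bp upstream of Klra3. An upstream element that acts as a promoter in immature NK cells is known in Ly49 genes. NK and T cell-like nuclei were less than 2-fold apart at these 6 regions on both days, also for Klra6 and Klra7, whose RNA differed strongly between the classes, and the Klra8 region stood at the same height at D0 and D5, while its RNA was lower at D5. At this depth the Klra8 region rested on 78 fragments at D0 and 46.5 at D5 in NK cell-like nuclei. In T cell-like nuclei the 6 regions rested on few fragments, from 21.5 (Klra3 at D0) down to 6.5 (Klra10 at D5). A 2-fold difference between NK and T cell-like nuclei could therefore be missed. Klra5 had a fainter region farther out, 9384 bp upstream, with 3.84 and 2.51 fpm in NK cell-like, 3.62 and 1.66 in T cell-like and 0 and 0.146 in cDC-like nuclei. Klra17 had one 6100 bp upstream that was not higher in NK than in cDC-like nuclei, and Klra4, Klra1 and Klra2 had no shared region upstream within 10 kb.

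**Figure D5:**
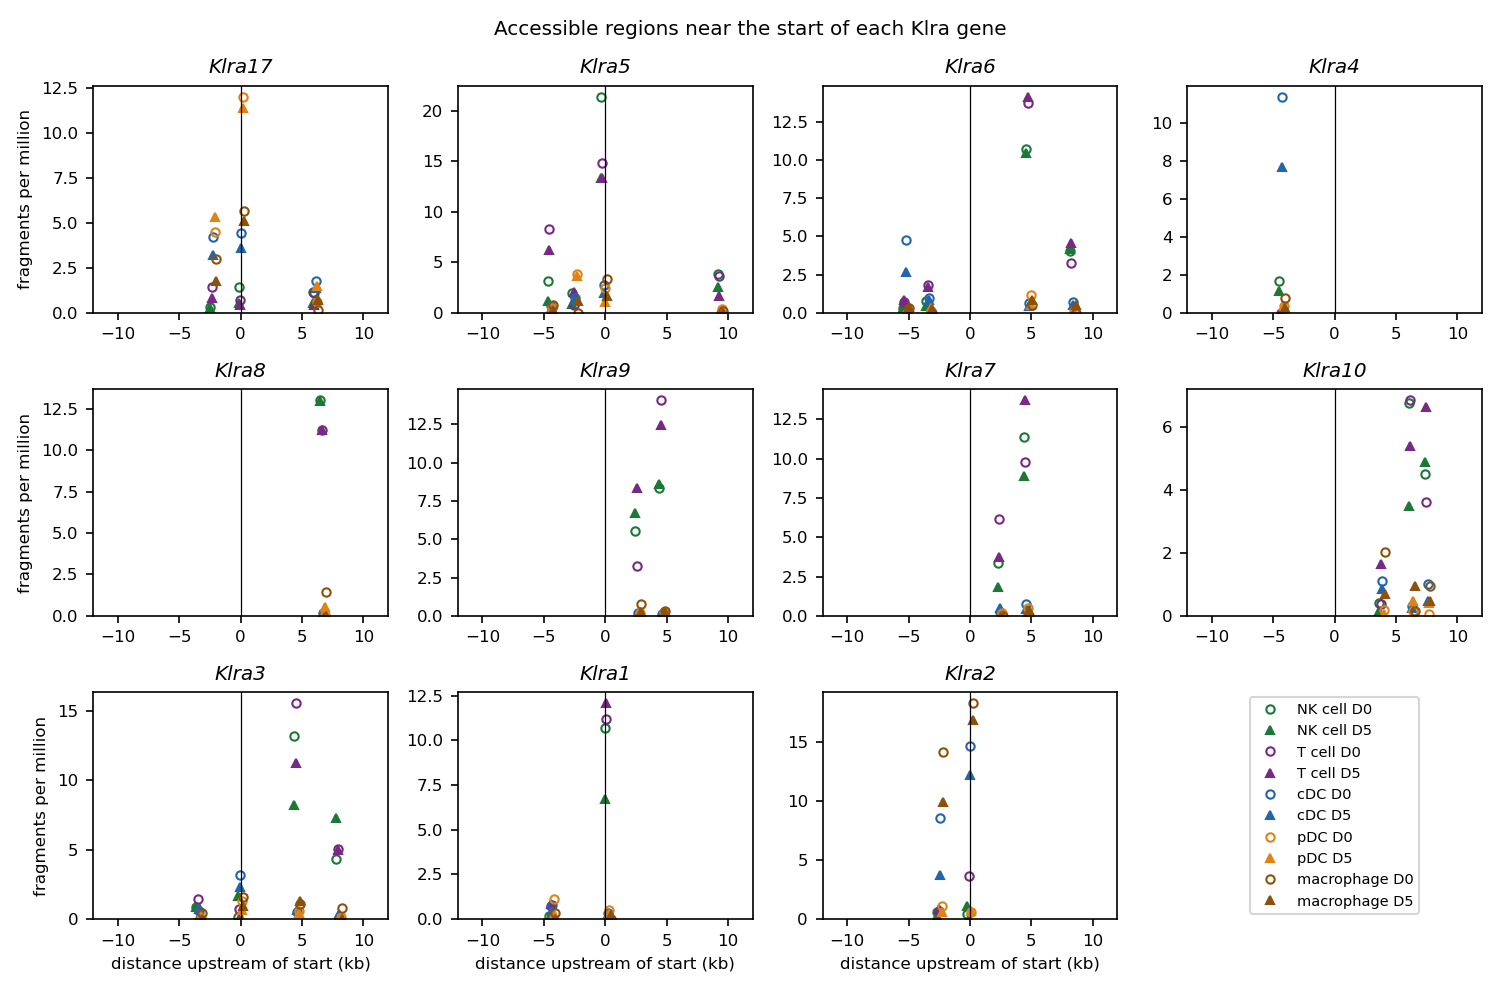
Shared accessible regions within 10 kb of the start of each of the 11 Klra genes, placed by the distance of their centre upstream of the start (x axis, kb, negative values lie in the gene) with fpm in 5 classes (y axis, scaled per gene), D0 open circles and D5 filled triangles. Klra6, Klra8, Klra9, Klra7 and Klra3 show NK and T cell-like signal about 4.6 to 6.7 kb upstream with almost none in the other classes, while Klra17 and Klra2 show pDC-like and macrophage-like signal at the start.

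The signalling partners and ligands of the receptors were followed from lists chosen by function. In NK cell-like nuclei 18 of 20 signalling partners had enough UMIs, and 0 of them were at least 2-fold different between the days, where 1.03% of all genes were higher and 2.8% lower. Tyrobp, the adaptor of activating Ly49 receptors, had 1537 and 1425 CPM. The 8 MHC class I genes had a median log2 ratio of -0.54 in NK cell-like, -0.54 in T cell-like, -0.52 in cDC1-like and -0.49 in cDC2-like nuclei, beside medians over all genes of -0.16, -0.15, -0.20 and -0.14. In each cDC class 2 of the 8 were at least 2-fold lower, against 5.62% of all genes in cDC1-like and 5.4% in cDC2-like nuclei. H2-Q6 had 143 and 35.1 CPM in cDC1-like and 229 and 48.3 CPM in cDC2-like nuclei, and H2-Q7 had 241 and 77.7 CPM and 343 and 99.6 CPM. Both encode Qa-2 molecules, which resemble each other closely enough to share reads.

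Of the ligands of Klrk1, Ulbp1 was lower in cDC2-like nuclei (-1.66, 28 and 42 UMIs) and Raet1e in T cell-like nuclei (-1.03), and of the Clec2 ligands Clec2d was lower in T cell-like nuclei, at 229 and 109 CPM (-1.08). TMM factors moved both T cell-like values short of 2-fold, Raet1e to -0.82 and Clec2d to -0.87. Raet1e changed sign with a minimum of 2000 UMIs (0.17, -1.20 to 1.77), and Clec2d ran from -1.07 to -0.28 over the alternatives. Cdh1, which encodes the Klrg1 ligand E-cadherin, was higher at D5 in cDC2-like nuclei, at 4.53 and 34.4 CPM (2.93, 2.22 to 3.74), and lower in NK cell-like nuclei, at 20.7 and 8.85 CPM (-1.23). Among the other NK receptors, 1 of 13 with enough UMIs was at least 2-fold higher in NK cell-like nuclei and 0 were lower, against 1.03% and 2.8% of all genes. This was Crtam, at 34.0 and 96.9 CPM (1.51, 1.11 to 1.92), which is also a leading gene of subcluster 1. In cDC2-like nuclei 6 of 12 were lower, against 5.4% of all genes, with Cd226 at 42.5 and 7.12 CPM, Ncr1, Cd160, Nkg7, Pilrb1 and Pilrb2. In cDC1-like nuclei 3 of 10 were lower (Ncr1, Cd160 and Nkg7), and 1 of 15 signalling partners, Lcp2 (-1.06), against 5.62% of all genes. Free Ncr1 was also lower at D5 (176 and 43.0 CPM), and the part of free RNA in these values was not tested.

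Markers of other cells moved with the comparison of days in NK and T cell-like nuclei. The summed level of the 10 cDC2 markers in NK cell-like nuclei was 1182 CPM at D0 and 2052 at D5, that of the 8 Ccr7+ DC markers 241 and 355 CPM, that of the 8 cDC1 markers 729 and 540 CPM, that of the 9 pDC markers 662 and 526 CPM and that of the 12 T cell markers 2030 and 1775 CPM. The 10 macrophage markers summed to 47.3 and 40.3 CPM, with Clec4f, Vsig4, Cd5l and Marco at 0 at D0. The 12 NK cell markers summed to 13895 and 12312 CPM. In T cell-like nuclei the cDC2 markers were at 1201 and 1982 CPM, the cDC1 markers at 641 and 389 CPM, the pDC markers at 606 and 411 CPM, the Ccr7+ DC markers at 187 and 190.2 CPM and the macrophage markers at 42.8 and 48.4 CPM. Their own T cell markers summed to 4289 and 3990 CPM, and their NK cell markers, at 12683 and 12181 CPM, were nearly as high as in NK cell-like nuclei. UMIs of Trbc1, a T cell receptor constant gene, were in 64.6% and 68.7% of NK cell-like nuclei, those of Trbc2 in 42.5% and 49.7% and those of Cd3g in 28.5% and 42.3%. Cd3d was in 2.82% and 6.14%, Trac in 2.48% and 2.05% and Cd3e in 0.83% and 0.98%. By CPM, Cd3g (313 and 418) and Cd3d (23.2 and 35.4) were higher at D5 and Trbc1 (924 and 713) was lower. The part of these markers in the Klr values was not tested.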

How the data were processed

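RNA and ATAC were read in the same nuclei of 2 libraries, 1 per day. The deposited values are counts, made by the authors on build mm10 with Cell Ranger ARC 2.0.2, as the processing notes and the headers of the joint matrices name it, while the headers of the RNA matrices name Cell Ranger 6.0.2. They are UMI counts per gene, and cut-site counts per peak, called per library, which were halved here to fragments. The D5 joint matrix came without barcodes, so all 27873 nuclei were joined by identical gene counts, a rule that returned the same barcode for all 16260 nuclei at D0.

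A nucleus needed 1000 UMIs or more with no more than 10% of them mitochondrial (14278 passed at D0 and 26633 at D5), and likely doublets (score above 0.2) were removed, 3296 (23.1%) and 6801 (25.5%). Called libraries held 44496348 and 94374499 UMIs. Clustering used scanpy 1.11.5 (2000 variable genes without Klr genes, 30 components, 15 neighbours, Leiden resolution 1). A cluster was named when at least 3 markers of a list were raised 2-fold and led the other lists. Subclusters were named by state markers under looser limits, a smaller rise and a lead of 0.25 in mean log2 fold. The naming limits and the doublet score were set with the clusters in view. NK and T cell-like nuclei were clustered again (1000 genes, 20 components, resolution 0.5).

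UMIs were summed per class. Sums carry exact Poisson intervals, shares exact binomial (Clopper-Pearson) intervals, and log2 ratios the interval from the split of both counts (scipy 1.17.1). With 1 library per day there is no replicate check and no test, and a difference is counted when it reaches 2-fold among genes with at least 50 UMIs over both groups. A count of 0 was read against a floor of 3 counts. The code was tested on simulated data. TMM factors came from edgeR 4.0.16 as an alternative scaling of the deposited counts. Peaks that overlap between the libraries were merged into shared regions, and start sites are those in the file of genes. Motifs and identities were computed on RefSeq promoters with Biopython 1.88.

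Members with at least 50 UMIs in a class are given with their level there, singly or as a range over classes, and the rest by their UMIs over all kept nuclei or in single classes. Of the partner lists, genes at least 2-fold different between days in NK, T, cDC1 or cDC2-like nuclei are named. The members and lists were chosen with earlier results of these data known. Roles of members are background, since no protein sequences were used here. Alternatives were the UMI minimum, doublet and mitochondrial filters, clustering resolution, marker-based classes, nuclei without T cell receptor or CD3 UMIs, thinning, window size and scaling.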

Additional observations from a re-analysis of the deposited data

Results flagged for a closer look

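Klrb1b, an NKR-P1 receptor gene, was lower at D5 in T cell-like nuclei, with a log2 ratio of -1.004, and higher at D5 in Ccr7+ DC-like nuclei, with a log2 ratio of 1.249 on 17 UMIs at D0 and 163 at D5. It stands here because the classes differ in direction by at least 2-fold each, and the difference between them was not tested. With TMM factors the T cell-like ratio was -0.80, short of 2-fold.

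Cdh1, the gene of the Klrg1 ligand E-cadherin, had a log2 ratio of D5 over D0 of -1.23 in NK cell-like nuclei, on 42 and 20 UMIs, and of 2.93 in cDC2-like nuclei, on 16 and 576 UMIs. This difference between classes was not tested either.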

How the results depend on the processing

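No paired analysis was possible because each day has 1 library and no result comes from a test. The day ratio of the family in NK cell-like nuclei (-0.21) was -0.15 with a minimum of 2000 UMIs, -0.15 with Leiden resolution 0.5, 0.091 with classes from markers in each nucleus and -0.016 with TMM factors. In NK subcluster 3 alone, an alternative chosen after seeing the data, it was -0.14. In T cell-like nuclei (-0.20) it was -0.12 with 2000 UMIs, 0.085 with marker classes and 0.0093 with TMM factors. The count of 3 members beyond 2-fold was 2 with TMM factors, with Leiden 0.5 and without removal of doublets, 1 with marker classes, 0 in NK nuclei without a T cell receptor or CD3 UMI, where 12 members and none of these 3 had 50 UMIs, and 5 when only 1 UMI on each day was asked for. NK over T cell-like (0.04 at D0 and 0.02 at D5) was 0.12 and 0.088 with 2000 UMIs and 0.50 and 0.51 with marker classes, which left 22 and 18 T cell-like nuclei. Marker classes held 2016 and 1409 NK cell-like nuclei, against 1453 and 1124 in the main clustering. All their NK cell-like values are therefore of a different set of nuclei, which may include T cell-like ones.

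Klra17 in pDC-like over other named nuclei (3.71 at D0 and 2.69 at D5) was 3.12 and 1.95 without removal of doublets and 3.21 and 2.90 with Leiden 0.5. At D5 it was also 2.59 with 2000 UMIs and 2.42 with TMM factors. The share of NK cell-like nuclei with a Klra gene (36.7% and 30.1%) was 40.3% and 35.8% with 2000 UMIs, 43.3% and 41.3% with Leiden 0.5, 40.4% and 39.2% with marker classes, and 42.1% and 40.9% without thinning. Start site accessibility of NK over cDC-like nuclei (1.08 and 1.19) was 0.98 and 0.97 with a 10 kb window, 0.91 and 0.90 with 500 bp, 1.48 and 1.46 with TMM factors, and 0.84 at D0 with marker classes. Its day ratio in NK cell-like nuclei (0.07) was 0.21 with marker classes.

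Klra1 in NK cell-like nuclei (-1.74) reversed to 0.019 with Leiden 0.5 and to 1.47 in nuclei without a T cell receptor or CD3 UMI, there on 1 and 2 UMIs (-2.79 to 7.35). Over all alternatives the day ratio of Klra8 ran from -3.69 to -0.41 and that of Klra4 from -2.20 to -0.47. In T cell-like nuclei Raet1e (-1.03) reversed to 0.17 with 2000 UMIs and to 2.09 with marker classes, there on 1 and 4 UMIs. The causes were not tested. Leiden 0.5 formed no T cell-like class and gave no value for it. Its NK cell-like class held 1898 and 1577 nuclei, against 1453 and 1124 in the main clustering, and raised 11 T cell markers. All NK cell-like values with Leiden 0.5, that of Klra1 among them, may thus include T cell-like nuclei. Depth limits the rarest members, which had under 50 UMIs in NK cell-like nuclei, and free RNA limits what low myeloid levels show.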

Other observations

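Unnamed nuclei held 31.1% of the family UMIs at D0 and 28.2% at D5. Cluster 5, which carried markers of both NK and T cell lists and so stayed unnamed, had 631 nuclei at D0 and 77 at D5 and a family level of 2680 and 2938 CPM, and it held 18.0% and 1.30% of the family UMIs. Cluster 17 had 194 and 28 nuclei and 3407 and 3832 CPM. Median depths were 3377 and 4421 UMIs in cluster 5 and 2659 and 3265.5 in cluster 17, against 1219 and 1741 in NK cell-like nuclei. Whether doublets remained in these clusters was not tested.

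Among NK cell-like nuclei thinned to 1000 UMIs at D0, Klra8 was seen in 7 of the 21 nuclei with Klra4 (33.3%, 14.6 to 57.0) and in 24 of the 1432 without it (1.68%, 1.08 to 2.48). Both genes were higher in NK subcluster 3 than in the other NK cell-like nuclei at D0. The part of this, and of reads shared between these similar genes, was not tested. The other 3 Ly49 pairs compared at D0 showed no difference beyond counting error, with Klra9 in 20.4% of nuclei with Klra5 and 16.2% without, and Klra5 in 19.6% and 16.1% with and without Klra7 and in 12.9% and 16.2% with and without Klra8. Klrc1 was seen in 42.9% (39.6 to 46.2) of nuclei with Klrd1 and in 44.6% (40.5 to 48.8) of those without.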
